A study of Homo sapiens with 6 samples.

Results

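Small nucleolar RNA host genes were followed through RNA sequencing of A549 cells with and without the retinal protein recoverin. The members, which were chosen by symbol from a list proposed with the replicate 3 levels of these data in view, were the genes whose symbol is SNHG followed by digits, together with GAS5, ZFAS1, EPB41L4A-AS1, DANCR, TMEM107 and RACK1. The rule gave 31 genes of 58676, under 30 symbols, since SNHG28 stands for a pair of gene identifiers. Of these genes 28 passed the filter on low values and were tested, and the other 3 (SNHG18, SNHG27 and SNHG28 under ENSG00000188004) were listed at 0 in every library.

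Small nucleolar RNAs (snoRNAs) guide the chemical modification of ribosomal RNA, by ribose methylation for the box C/D class and by pseudouridylation for the box H/ACA class, and scaRNAs do the same for spliceosomal RNA. In human cells most of them are cut out of the introns of host genes. Many hosts make no protein from their spliced exons, and the spliced RNA of several, GAS5 among them, is removed by nonsense-mediated decay (NMD). A number of hosts start with a run of pyrimidines, the terminal oligopyrimidine (TOP) motif, like the genes of ribosomal proteins. Several, GAS5, SNHG1, SNHG12, ZFAS1 and DANCR included, are studied in tumors as long noncoding RNAs.

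A549 is an established human lung adenocarcinoma line that lacks recoverin. A549 Rec carried human recoverin cDNA with a myc tag in the retroviral vector pMXs-puro, and A549 MOCK carried the vector without it. Both were selected with puromycin and grown as flat (2D) cultures, with 3 libraries in each group. Whether each line was a pool or a clone is not given in the sources used here. Nothing states that the libraries of a group came from separate transductions, so the p-values measure the spread between these libraries, which may be technical. RCVRN, the recoverin gene, had 0 reads in each A549 MOCK library (a count of 0 allows up to 3, for counting error only) and 4700, 5769 and 5220 reads in A549 Rec.

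The depth, recovered from the values, was 15184021 to 18572859 reads per library. Genes of the mitochondrial chromosome held 34.5% of all TPM in A549 MOCK replicate 3 and 26.9% in A549 Rec replicate 3, against 13.3 to 17.3% in the other 4 libraries. TPM is the number of reads per length of the gene, scaled to 1000000 per library. Each library was therefore rescaled to 1000000 over the genes off the mitochondrial chromosome, and levels below are this rescaled TPM unless stated. Of the epithelial markers, KRT8, KRT18 and CDH1 had mean levels of 3136, 3678 and 172, while EPCAM had 2.56 and KRT19 had 0.176. The alveolar markers SFTPA1, SFTPB, SFTPC and NKX2-1 had means under 1 and NAPSA a mean of 3.85. Of the leukocyte markers, CD3E was at 0 in every library, PTPRC had a mean of 0.0294 and CD14 one of 7.63. Of the fibroblast markers, COL1A2 was at 0 in every library, COL3A1 and DCN had means under 0.1 and COL1A1 one of 4.92. The summed endothelial markers reached no more than 1.39.

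The start of the transcript is shown first because TOP genes are read from there. The windows hold 10 bases before the RefSeq start (GRCh38.p14) and 20 bases from it, on the strand of the gene. Capitals mark the unbroken run of C or T from the start, where it begins with C. The first 6 are the tested members with a run of at least 5, and the last 3 are members without one whose level was high in the replicate 3 libraries.
RACK1 (chr5:181243887-181243916, minus strand): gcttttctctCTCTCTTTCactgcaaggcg
SNHG19 (chr16:2155339-2155368, minus strand): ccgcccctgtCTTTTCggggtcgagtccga
SNHG5 (chr6:85678714-85678743, minus strand): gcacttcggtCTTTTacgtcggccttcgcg
ZFAS1 (chr20:49278632-49278661, plus strand): gccattcgttCTTTCgcgtctgcggtgccc
SNHG12 (chr1:28581854-28581883, minus strand): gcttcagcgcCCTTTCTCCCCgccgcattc
SNHG4 (chr5:139274091-139274120, plus strand): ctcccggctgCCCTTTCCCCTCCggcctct
SNHG1 (chr11:62855866-62855895, minus strand): gagattcgttCTCatttttctactgctcgt
SNHG8 (chr4:118278752-118278781, plus strand): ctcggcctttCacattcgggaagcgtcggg
SNHG17 (chr20:38435309-38435338, minus strand): gtgtggcctcagtccttcgccgtccctcgc

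Of the 30 member symbols 26 were matched to RefSeq, and 7 of these (26.9%) had a C at the start followed without a break by C or T to a run of at least 5. The same run stood at 1429 of 35116 RefSeq starts (4.07%) and at 43 of 63 matched genes of cytosolic ribosomal proteins (68.3%). The search was made at the start on the strand of the gene only. The RefSeq start lay 4190 bases from the start of the gene in the deposited annotation for RACK1, 1259 for SNHG12 and 464 for ZFAS1, and at most 53 bases away for the other 6 windows shown. The match is one of letters, and transcript starts were not measured here.

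SNHG1 lies at chr11:62851988-62855914 (GRCh38, minus strand) and holds 7 snoRNA genes between its bounds. SNHG1 is shown because it had the largest replicate 3 difference of the members, described below, and SNORD25, SNORD27 and SNORD30 because among its 7 they hold the exact letters of both boxes. Capitals mark the core of box C (TGATGA) near the 5′ end and box D (CTGA) near the 3′ end, the motifs on which the methylation complex assembles.
SNORD25 (chr11:62855564-62855632): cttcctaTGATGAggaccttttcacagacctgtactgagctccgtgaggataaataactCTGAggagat
SNORD27 (chr11:62855012-62855083): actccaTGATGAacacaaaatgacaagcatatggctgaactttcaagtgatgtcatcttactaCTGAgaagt
SNORD30 (chr11:62853663-62853732): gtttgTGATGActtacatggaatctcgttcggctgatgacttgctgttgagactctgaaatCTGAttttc

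The libraries were made from poly(A)-selected RNA, and the snoRNAs themselves were little read. Of 140 snoRNA and scaRNA genes inside the members, 116 had 0 reads in every library, all 7 of SNHG1 among them. Only SNORA71C inside SNHG17 and SNORD104 inside SNHG25 had 60 reads or more over the 6 libraries. How reads that lie in both a host and a snoRNA gene were counted is not given in the sources used here. The counts of 0 therefore do not show that a snoRNA was absent. The values below are those of the host genes.

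RACK1, a scaffold protein of the ribosome and the host of SNORD95 and SNORD96A, had the highest level of the members, 548 ± 14.6 in the A549 MOCK group and 572 ± 8.24 in the A549 Rec group (SD, n = 3). It gave 31.81% of the summed level of all members. Of the other protein-coding members, TMEM107, a protein of the ciliary transition zone, had a mean of 8.90, and SNHG28 (ENSG00000256029) had 1.32. The U8 snoRNA SNORD118 lies between the bounds of TMEM107.

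Among the tested noncoding hosts the mean levels ran from 219 for SNHG19 to 2.04 for SNHG21. SNHG19 had 206, 243 and 178 in A549 MOCK against 209.5, 268 and 207 in A549 Rec. SNHG5, the host of SNORD50B, had 155, 152 and 169.8 in A549 MOCK against 138, 152 and 156 in A549 Rec. The ranges of the 2 groups overlapped for both genes. Next came SNHG8 with a mean of 120.4, SNHG6 with 106, SNHG16 with 90.9, GAS5 with 79.6, SNHG1 with 69.8 and DANCR with 58.7. In all, 9 members had a mean of 50 or more, 12 a mean of 10 to 50 and 7 tested members a mean under 10. SNHG14, the long transcript of the Prader-Willi region and the host of 84 of the 140 guide RNA genes, had 8.18.

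**Figure D1:**
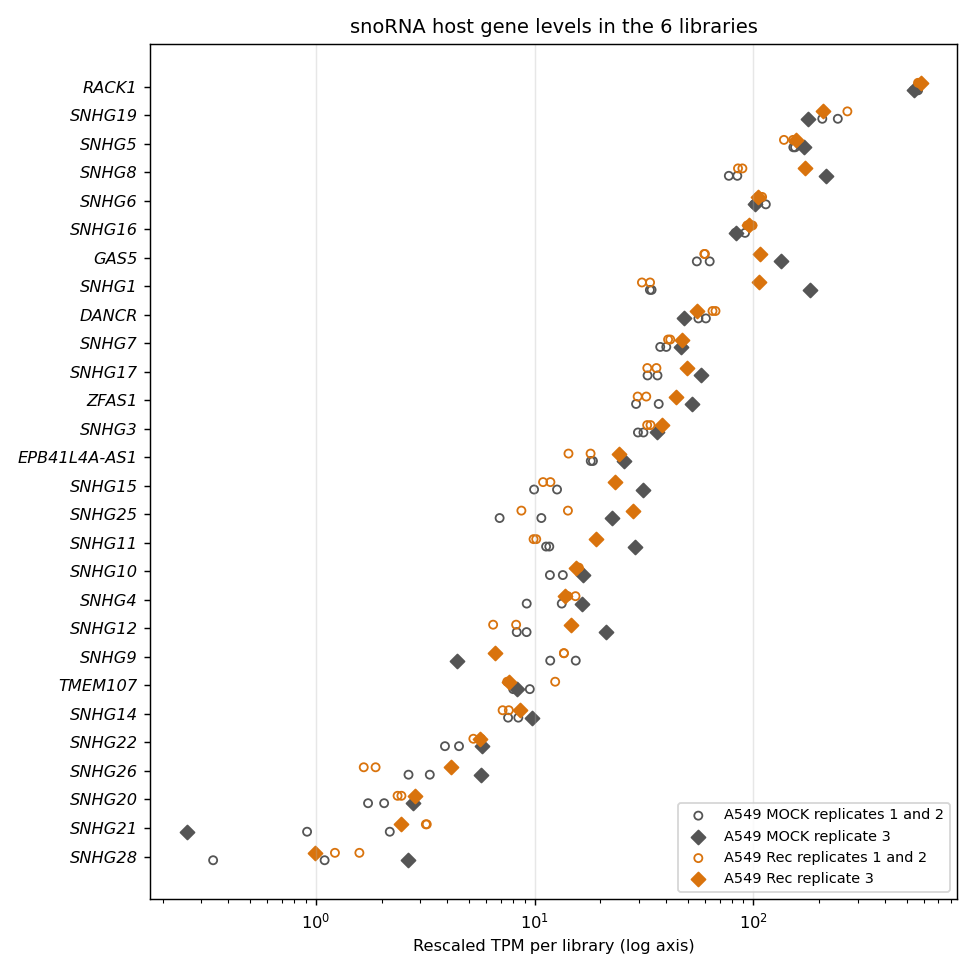
Level of the 28 tested snoRNA host genes in each library, as rescaled TPM on a log axis, with A549 MOCK in grey and A549 Rec in orange. Open circles are replicates 1 and 2 and filled diamonds are replicate 3. The colors overlap for most genes, whereas both diamonds of SNHG1 (180.4 and 106) lie to the right of its circles (30.9 to 34.2).

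Summed over the members, the level was 1593, 1642 and 2045 in A549 MOCK against 1641, 1704 and 1942 in A549 Rec, or 1760 ± 247.8 against 1762 ± 158.6 (SD, n = 3). The means differed by less than the spread between libraries. The members held 0.159 to 0.2045% of a library. Without RACK1 the sum was 1505 and 1361 in the replicate 3 libraries and 1054 to 1139 in the other 4.

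The comparison of A549 Rec with A549 MOCK asks whether the recoverin cDNA changed the host transcripts. None of the 28 tested members was a differentially expressed gene (DEG, adjusted p under 0.05 by limma with Benjamini-Hochberg adjustment and a fold change of at least 2). Over all 17999 tested genes only 1 was (0.00556%), so the absence of members says little about them. The study, which used DESeq2 on read counts, reported far more DEGs. The adjusted p was 0.9995 for each member by limma. At an unadjusted p under 0.05 there were 2 members, SNHG16 and SNHG21, both higher in A549 Rec, and 2.53% of all tested genes (1.08% higher and 1.45% lower). In bulk RNA, a change in the share of cells that express a gene and a change in its level per cell cannot be told apart.

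SNHG16, the host of box C/D snoRNAs of the SNORD1 family, had levels of 91.5, 82.6 and 83.1 in A549 MOCK against 99.0, 93.6 and 95.9 in A549 Rec. The lowest A549 Rec library lay just above the highest A549 MOCK library. The log2 difference was 0.17 ± 0.07 (SE), with an unadjusted p of 0.0408 by limma. An antisense gene with a mean level of 42.5, AC015802.6, overlaps it, and without the strand setting of the counting their reads cannot be told apart.

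SNHG21, the host of SCARNA15, had levels of 2.18, 0.914 and 0.258 in A549 MOCK against 3.22, 3.19 and 2.47 in A549 Rec. These rested on 10, 4 and 1 reads against 14, 17 and 10 reads. FSD2, at a mean level of 1.09, overlaps SNHG21 on the opposite strand, and reads of this pair cannot be told apart either. The groups did not overlap, and the log2 difference was 1.00 ± 0.35 (SE), with an unadjusted p of 0.0268 by limma. At this low level the pseudocount of 1 shrinks the difference, which was 1.69 with a pseudocount of 0.1 and 1.63 with voom on the recovered reads. SNHG16 and SNHG21 were also the members with every A549 Rec library above every A549 MOCK library (2.78% of all tested genes). The reverse order was found in 0 members (3.88% of all tested genes).

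The other large differences were within the spread between libraries. SNHG25 had levels of 10.7, 6.93 and 22.5 in A549 MOCK against 8.71, 14.2 and 28.0 in A549 Rec, with a log2 difference of 0.32 ± 0.51 (SE). SNHG22, the host of SCARNA17, had 4.52, 3.90 and 5.77 in A549 MOCK against 5.70, 5.25 and 5.61 in A549 Rec, with a difference of 0.20 ± 0.16 (SE). For SNHG25 and SNHG22 the ranges of the groups overlapped. MYO5B, at a mean level of 7.16, overlaps SNHG22 on the opposite strand.

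Downward, SNHG26 had levels of 3.32, 2.66 and 5.70 in A549 MOCK against 1.66, 1.88 and 4.15 in A549 Rec, a log2 difference of -0.47 ± 0.34 (SE). SNHG12 had 8.29, 9.20 and 21.2 in A549 MOCK against 6.47, 8.24 and 14.7 in A549 Rec, a difference of -0.32 ± 0.40 (SE). SNHG11 had 11.7, 11.3 and 28.6 in A549 MOCK against 9.90, 10.2 and 19.0 in A549 Rec, a difference of -0.31 ± 0.40 (SE). In each of these genes the replicate 3 library was the highest of its group, and the groups overlapped through it.

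A fit with the replicate number as a block assumes that equal numbers pair the libraries, which no label states. In it 6 members had an unadjusted p under 0.05 by limma (5.08% of all tested genes). SNHG16, DANCR and SNHG21 were higher in A549 Rec, and SNHG12, SNHG26 and SNHG11 were lower. DANCR had levels of 60.6, 56.0 and 48.4 in A549 MOCK against 67.1, 65.0 and 55.2 in A549 Rec, so that each A549 Rec library exceeded the A549 MOCK library of its own number. Its log2 difference was 0.18 ± 0.05 (SE) with the block and its unadjusted p by limma was 0.0142 with the block and 0.154 without. No member was a DEG with the block. Without both replicate 3 libraries 2 members had an unadjusted p under 0.05 (6.34% of all tested genes), SNHG10 and DANCR, and neither SNHG16 nor SNHG21 was among them. SNHG10 is named here after its value was seen.

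Over all 28 tested members, 16 differences were positive and 12 negative, and 22 were under 0.2 on the log2 scale in size. The median was 0.05, where that of all tested genes was -0.02. For 19 members the 95% interval lay within -1 and 1 on the log2(rescaled TPM + 1) scale, on which a 2-fold change of a low gene is smaller than 1. For the other 9 it reached past one of these bounds. SNHG1 had the widest interval of the members, from -2.09 to 1.49. RACK1 was measured far more closely, with an interval from -0.06 to 0.18.

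**Figure D2:**
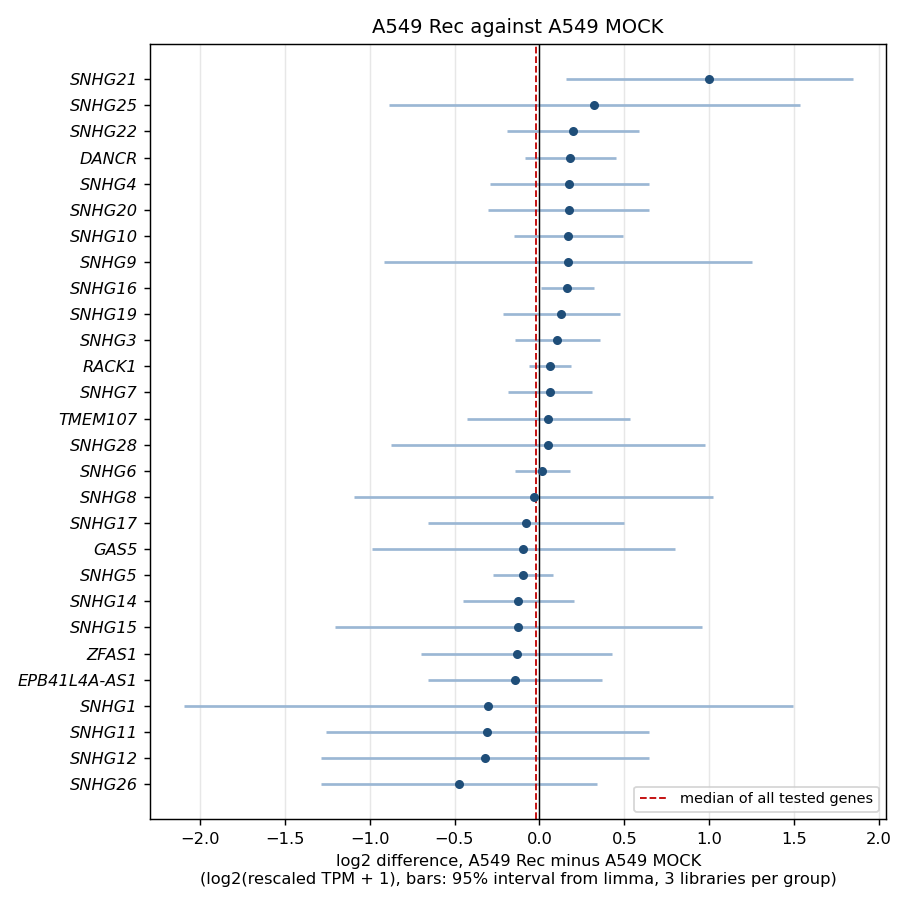
Log2 difference of A549 Rec minus A549 MOCK for the 28 tested members, on the log2(rescaled TPM + 1) scale, with 95% intervals from limma (3 libraries per group). The intervals of SNHG16 and SNHG21 lie above 0, the others include it, and the widest intervals belong to genes such as SNHG1 (-2.09 to 1.49) in which replicate 3 stood apart.

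The replicate 3 libraries of both groups stood apart from replicates 1 and 2 in these genes. This contrast was in view when the members were proposed, so it is given as a description with no test. In 16 of the 28 tested members (57.14%) both replicate 3 libraries lay above all of the other 4, as in 26.9% of all tested genes. In 2 members, DANCR and SNHG9, both lay below, as in 14.4% of all tested genes, and the other 10 members did neither. The share of mitochondrial TPM was high in the same 2 libraries, and its part in these differences was not tested.

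The scale moves all genes together. The median log2 difference of replicate 3 minus the other libraries was 0.08 over all tested genes on rescaled TPM, -0.19 on deposited TPM and -0.01 after quantile normalization. The median of the members was 0.22, -0.04 and 0.15 on these scales, that is 0.14, 0.15 and 0.16 above that of all genes. The count of members with both libraries above was 11 on deposited TPM (6.40% of all tested genes) and 14 after quantile normalization (18.2%). The count with both below was 6 (44.0%) and 3 (20.6%). SNHG1, SNHG8, GAS5, SNHG15, SNHG25, SNHG11, SNHG12, SNHG26, SNHG17, ZFAS1 and EPB41L4A-AS1 lay above on all 3 scales, and DANCR and SNHG9 below on all 3.

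SNHG1 had levels of 34.2, 33.6 and 180.4 in A549 MOCK against 30.9, 33.7 and 106 in A549 Rec. The 4 libraries of replicates 1 and 2 lay between 30.9 and 34.2, and both replicate 3 libraries were high, with a mean 4.32 times that of the others. On the log2 scale replicate 3 exceeded the other libraries by 2.03, by 2.38 within A549 MOCK and by 1.68 within A549 Rec. This difference had rank 36 among 17999 tested genes and rank 8 among the 10567 with a mean log2 level at or above that of 10 TPM. The reads behind it were 560, 525 and 2490 in A549 MOCK against 480, 641 and 1529 in A549 Rec.

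GAS5, a noncoding RNA named for its accumulation in growth-arrested cells, had levels of 55.1, 63.1 and 133 in A549 MOCK against 60.0, 59.6 and 107 in A549 Rec. SNHG8, the host of the box H/ACA snoRNA SNORA24, had 84.4, 77.2 and 214 in A549 MOCK against 85.0, 89.0 and 172 in A549 Rec. SNHG15, the host of SNORA9, had 9.95, 12.7 and 31.3 in A549 MOCK against 11.8, 10.9 and 23.4 in A549 Rec. In these 3 genes replicate 3 was the highest library of both groups, by log2 differences of 0.99, 1.19 and 1.19. SNHG25 showed the same order, with a difference of 1.27 resting on 104 reads over the 6 libraries.

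Smaller differences in the same direction were seen in SNHG17 (0.62 on the log2 scale), ZFAS1 (0.58) and EPB41L4A-AS1 (0.52). SNHG17 had levels of 36.4, 32.8 and 57.9 in A549 MOCK against 36.0, 32.7 and 49.8 in A549 Rec. ZFAS1, the host of 3 snoRNAs of the SNORD12 family, had 29.1, 36.9 and 52.5 in A549 MOCK against 32.4, 29.6 and 44.2 in A549 Rec. In these 3 genes too no library of replicates 1 and 2 reached the level of a replicate 3 library. The remaining members with both libraries above were SNHG3, SNHG5, SNHG7, SNHG14 and SNHG20, and for the first 4 of these the difference turned negative on deposited TPM.

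In several abundant members the difference was close to 0. RACK1 had 539, 565 and 540.0 in A549 MOCK against 572, 564 and 581 in A549 Rec, a log2 difference of 0.00, which turned negative on deposited TPM. SNHG6, the host of SNORD87, had 101, 114 and 101 in A549 MOCK against 109.5, 105 and 105 in A549 Rec, a difference of -0.05, and SNHG16 differed by -0.03. In both genes A549 MOCK replicate 3 lay between replicates 1 and 2 of its group. SNHG7, the host of SNORA17A and SNORA17B, had 40.0, 37.5 and 46.5 in A549 MOCK against 40.7, 41.7 and 46.9 in A549 Rec on rescaled TPM, where replicate 3 was the highest library of each group. Its log2 difference was larger, 0.22 on rescaled TPM, and was -0.07 on deposited TPM.

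SNHG9, the host of SNORA78, went the other way. Its levels were 15.4, 11.8 and 4.45 in A549 MOCK against 13.6, 13.6 and 6.60 in A549 Rec, a log2 difference of -1.18 that rested on 156 reads in all. DANCR, the host of SNORA26, differed by -0.26, SNHG19 by -0.26 and SNHG21 by -0.62. In SNHG19 and SNHG21 the replicate 3 library was the lowest of each group, but that of A549 Rec lay above at least one library of replicates 1 and 2 of A549 MOCK.

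Of the 16 members with both libraries above, the difference within A549 MOCK exceeded that within A549 Rec in 14. Over all 28 tested members, both differences were positive in 17, both negative in 7 and opposite in 4. The share over all tested genes was not computed for these counts, so they cannot be read as particular to the members. A difference of at least 1 on the log2 scale was found in 6 members (1.87% of all tested genes), and of -1 or less in 1 member (0.711%). The mitochondrial share was 34.5% in A549 MOCK replicate 3 and 26.9% in A549 Rec replicate 3, and its part in these differences was not tested.

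**Figure D3:**
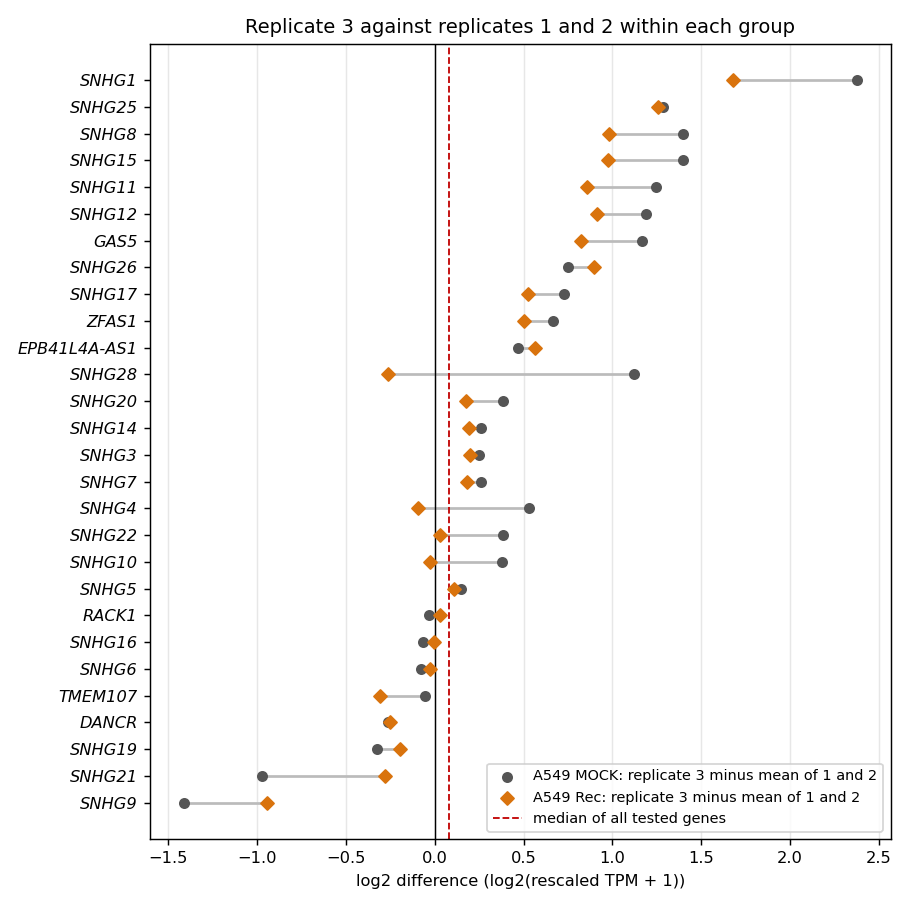
Log2 difference of replicate 3 minus the mean of replicates 1 and 2 within A549 MOCK (grey circles) and within A549 Rec (orange diamonds) for the 28 tested members, on the log2(rescaled TPM + 1) scale, with the median of all tested genes (0.08) as a dashed line. SNHG1 lies farthest to the right (2.38 and 1.68) and SNHG9 to the left. The difference over both groups together was positive on rescaled TPM and negative on deposited TPM for 8 members, RACK1 among them.

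The values do not separate spliced from unspliced host RNA. The length on which the TPM was based covered at least 80% of the gene from end to end in 8 members, and 95.65% in SNHG1, so that reads from its retained introns count with those from its exons. A gene at a level of 1 or more overlapped 18 of the members. SNHG1, SNHG8, SNHG15 and SNHG25 were not among these. On the opposite strand, GAS5 overlapped GAS5-AS1 at a mean level of 5.87, ZFAS1 overlapped ZNFX1 at 34.2, SNHG12 overlapped TRNAU1AP at 5.94 and SNHG10 overlapped GLRX5 at 70.4. Without the strand setting of the counting the reads of such pairs cannot be told apart. Other members, such as SNHG4 with SIL1 at 41.5, had opposite-strand overlaps too. On the same strand, SNHG3 overlapped RCC1 at 60.3, SNHG20 overlapped SEC14L1 at 18.3 and SNHG14 overlapped SNRPN at 4.77, among others. A strand setting would not separate these.

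Genes around the hosts were taken from lists, and no gene of any list was a DEG between A549 Rec and A549 MOCK. The core proteins of snoRNPs, the particles in which snoRNAs work, had 8 tested genes, of which 0 had an unadjusted p under 0.05 in limma. Fibrillarin (FBL), the methyltransferase of box C/D particles, had 472, 465 and 406 in A549 MOCK against 489.7, 505 and 475 in A549 Rec. NOP56, a scaffold of the same particles, had 170.1, 155 and 222 in A549 MOCK against 172, 154 and 195 in A549 Rec. In NOP56 both replicate 3 libraries were above the others, and in FBL the replicate 3 library was the lowest of each group. Of the 8 genes, 3 had both replicate 3 libraries above and 3 had both below. Over all tested genes the shares were 26.9% above and 14.4% below. The list counts were made on rescaled TPM only. On deposited TPM the shares of all tested genes were 6.40% above and 44.0% below. Of the 9 tested assembly factors, NOLC1 among them, 3 had both above and 2 had both below.

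Among 10 NMD factors, both replicate 3 libraries lay above the others in 7 and below in 0 (26.9% and 14.4% of all tested genes). SMG5 had levels of 76.5, 83.9 and 135 in A549 MOCK against 87.5, 83.0 and 114.5 in A549 Rec. UPF1, the helicase at the center of the pathway, had 38.4, 42.8 and 50.7 in A549 MOCK against 39.8, 40.1 and 39.9 in A549 Rec, so that only A549 MOCK replicate 3 was high. The median log2 difference of the list was 0.25 on rescaled TPM and -0.04 on deposited TPM. Of 5 genes of the exon junction complex, 2 had both replicate 3 libraries above and 3 had both below, beside the same shares of all tested genes.

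The genes of cytosolic ribosomal proteins are the best known TOP genes. Of 77 tested genes, 1 had an unadjusted p under 0.05 in limma, with the lower level in A549 Rec. In replicate 3, 12 of them had both replicate 3 libraries above and 31 had both below (26.9% and 14.4% of all tested genes). Their median log2 difference was -0.05 on rescaled TPM and -0.35 on deposited TPM. The 13 other tested TOP genes, led by EEF1A1 and EEF2, had 3 above, 3 below and a median of -0.03. Of the 6 members with the run at their start 3 lay above in replicate 3 (SNHG5, ZFAS1 and SNHG12), and of the 18 tested members matched to RefSeq without it 11 did, where 26.9% of all tested genes did. The other 4 tested members had no RefSeq match and are in neither count. Among the members without the run, the RefSeq start lay 154975 bases from the annotated gene start for SNHG14. It lay 18016 bases away for the tested SNHG28, 1927 for SNHG20 and 163 for GAS5. SNHG14, SNHG20 and GAS5 are among the 11 above. With the run, RACK1, SNHG12 and ZFAS1 also had distant starts. The split may therefore misplace members, and whether the run goes with the replicate 3 level was not tested.

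The 151 other tested genes with an annotated snoRNA inside, mostly protein-coding, had a median replicate 3 difference of 0.06 on the log2 scale. Both replicate 3 libraries lay above in 58 of them and below in 32 (26.9% and 14.4% of all tested genes). NEAT1, the nuclear RNA that builds paraspeckles, had levels of 115, 129 and 461 in A549 MOCK against 149, 125 and 226 in A549 Rec. MALAT1, a nuclear RNA of speckles, had 99.2, 116.5 and 210.5 in A549 MOCK against 112, 102 and 108 in A549 Rec. NEAT1 thus had both replicate 3 libraries high, and MALAT1 had A549 MOCK replicate 3 alone.

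**Figure D4:**
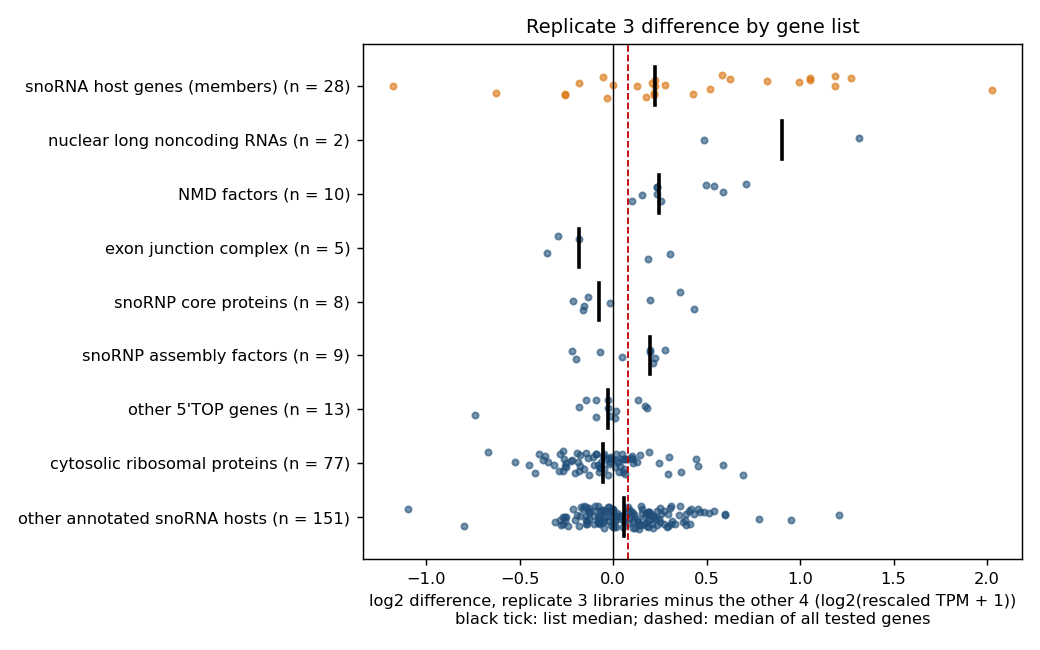
Log2 difference of the 2 replicate 3 libraries minus the other 4, on the log2(rescaled TPM + 1) scale, for each tested gene of the members and of the related lists, with list medians as black ticks and the median of all tested genes (0.08) as a dashed line. The members have a median of 0.22 and SNHG1 at 2.03 lies farthest to the right, while ribosomal proteins lie around -0.05. On deposited TPM these medians were -0.04 and -0.35.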

How the data were processed

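RNA sequencing of 3 A549 Rec and 3 A549 MOCK libraries was analysed. The labels give 6 days of culture and name the directional NEBNext kit. The authors trimmed reads with Trimmomatic 0.38 after FastQC 0.11.7, mapped them with HISAT2 2.1.0 to GRCh38 and counted them with featureCounts 1.6.3, per the labels and the methods of the study, and deposited TPM per gene. The processing notes name mouse builds, whereas the coordinates of the file are those of human GRCh38. The annotation release, the strand setting and the handling of multimapping reads, which could matter for RACK1 and its processed copies, are not given in the sources used here.

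The members and lists were chosen with earlier results of these data known. The deposited TPM was rescaled to 1000000 without the 37 mitochondrial genes. The 17999 genes that reached a rescaled TPM of 1 in 3 or more libraries were tested with limma 3.58.1 (lmFit, eBayes with trend; R 4.3.3) on log2(rescaled TPM + 1), two-sided, a scale that understates changes of low genes. The levels of the 12 most abundant members, the members with an unadjusted p under 0.05, the 3 with the largest difference in each direction between the groups and the 4 between replicate 3 and the rest are given per library, with up to 4 genes of each list.

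Reads were recovered from the steps of the TPM values as whole numbers within 0.001, together with a whole gene length. Of 6410 genes with at least 100 reads and the bounds of GENCODE v44, 68.9% gave its exon length. On simulated data 96.6% of 2850 genes were recovered exactly. The true length was supplied for most of these genes, so this is not a blind check. The comparison of A549 Rec with A549 MOCK was also simulated over 17999 genes. An adjusted p under 0.05 in limma found 200 of 200 genes changed 2-fold, with 12 others. Of these 200, 104 also passed the fold criterion. For a 3-fold change it found 200 of 200, with 8 others. The changed genes were drawn above a set mean level, and the noise followed the typical spread at each level. All genes of a level were thus given the same spread, with no shift shared by the replicate 3 libraries. This differs from the data for every gene, so the counts may overstate what the real comparison could find. Genes of wider spread, such as SNHG1 (SE 0.75), are not represented, so the simulation does not show that a change in them would be found.

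Replicate numbers 1 to 3 are given by the labels for each group. After subtraction of the group mean, libraries that bear one number correlated with 0.102, 0.147 and 0.297 across genes, and libraries of different numbers with -0.201 to 0.101. The highest of the latter, A549 MOCK replicate 1 with A549 Rec replicate 2, is practically equal to the same-numbered value of replicate 1. Every same-numbered value was over 0.1, but so was this one, so that bound does not set equal numbers apart. No label says that a number marks a shared batch. A fit with the replicate number as a block was added on the assumption that equal numbers pair the libraries. Other fits used deposited TPM, quantile normalization, a pseudocount of 0.1, no filter, limma without trend, each library left out and, chosen after the data were seen, deposited TPM with the block, voom weights on the recovered reads with and without the block, and the removal of both replicate 3 libraries.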

Additional observations from a re-analysis of the deposited data

How the results depend on the processing

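No member was a DEG under any alternative, and no gene of the related lists under those run for them, which leave out voom and deposited TPM with the block. The lowest adjusted p of a member by limma was 0.7014, without both replicate 3 libraries, and 0.9266 with the replicate block. The number of members with an unadjusted p under 0.05, which was 2, became 1 on deposited TPM and without the trend, 6 with the replicate block, 6 with voom on the recovered reads and the block, 4 on deposited TPM with the block, and 0 to 2 with one library left out. It was 0 without A549 MOCK replicate 2, A549 Rec replicate 1 or A549 Rec replicate 2, and 1 (SNHG10) without A549 MOCK replicate 3. The number of members with both replicate 3 libraries below, which was 2, became 6 on deposited TPM. With a library left out it ranged from 2 to 4, the 4 being without A549 Rec replicate 3. Where a replicate 3 library was left out, the counts below and above rest on the remaining replicate 3 library alone. The number above ranged from 16 to 20 with a library left out, the 20 being without A549 Rec replicate 3. Leaving out a library can only keep or raise these counts, so their range does not show that they are stable.

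The log2 difference of A549 Rec minus A549 MOCK changed sign for SNHG25, to -0.033 without A549 MOCK replicate 2 and -0.10 without A549 Rec replicate 3 (range -0.10 to 0.75). It also changed sign without A549 MOCK replicate 3 for SNHG12, to 0.077 (range -0.62 to 0.077), and for SNHG11, to 0.11 (range -0.59 to 0.11). The replicate 3 difference of SNHG21 became 0.11 without A549 MOCK replicate 3 and was -1.36 without A549 Rec replicate 3. The cause was not tested. Depth limits SNHG21, SNHG25 and SNHG9 most among the members named for a difference, since they rested on 56, 104 and 156 reads over the 6 libraries.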
